A study of Mus musculus with 10 samples.

Results

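Imprinted growth genes were followed in the hearts of male mice as a set of 10 genes chosen by name: H19, Igf2, Igf2r, Cdkn1c, Grb10, Peg3, Plagl1, Meg3, Rian and Mest. All 10 were found among the 55335 genes of the deposited table, with no filter on expression. The hearts came from the male offspring of dams that had been given anti-Müllerian hormone during pregnancy (PAMH, 5 samples) or phosphate-buffered saline as vehicle (control, 5 samples), and all offspring were wild type. The labels give neither the strain nor the age of the mice, and they tie no sample to an animal, litter or dam, so every p-value measures only the spread between these samples, which may be technical.

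Genomic imprinting is the expression of a gene from the copy inherited from one parent only, set by DNA methylation that is laid down in the egg or the sperm. Many imprinted genes act on growth before birth: the paternally expressed Igf2 encodes a growth factor, and the maternally expressed Igf2r, Grb10 and Cdkn1c restrain growth. Several of them, H19 and Igf2 above all, are abundant in the fetal heart and are switched down after birth. The values used here are totals per gene, and the parental origin of the RNA was not measured.

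The unit is FPKM, sequenced fragments per length of transcript and per mapped total. How many reads lie behind a value is unknown. The sum of FPKM ran from 654350 to 717453, and 16113 to 21097 genes had a value above 0. PAMH replicate 4 stood apart with the fewest genes above 0 and a rank correlation with the median sample of 0.946, against 0.973 to 0.987 for the others. The tissue carried its defining markers, with 9 ventricular cardiomyocyte genes summing to 10420 to 13060 FPKM in control and 9221 to 15230 FPKM in PAMH samples. The summed markers of the epicardium and mesothelium (6 genes) were 1.71 to 2.68 FPKM in control and 4.91 to 8.68 FPKM in PAMH samples. In a fit over all genes all 6 had a positive fold change and 3 were called higher, beside 0.987% called in either direction. In the fit of genes averaging at least 1 FPKM 2 of them were tested and both were called higher, beside 6.19%. The sum of 7 smooth muscle and pericyte markers was 76.8 to 117 and 128 to 172 FPKM. Acta2 alone was called among these 7 (32.1 ± 5.95 and 82.5 ± 20.7 FPKM, limma adjusted p = 0.00223), and the median log2 fold change of the 5 tested was 0.00. Endothelial marker sums were 118 to 158 FPKM in control and 103 to 119 FPKM in PAMH samples. Fibroblast sums were 344 to 381 and 293 to 412 FPKM, and macrophage sums 97.9 to 113 and 112 to 139 FPKM. Of the 8 endothelial genes tested 1 was called lower, and of the 7 macrophage genes tested 1 was called higher. The macrophage call did not hold without a filter. None of the tested ventricular, atrial, fibroblast and red blood cell genes was called. Red blood cell genes reached 437 FPKM in control samples and 863 FPKM in PAMH replicate 4. Atrial marker sums were 46.8 to 129 FPKM in control and 78.7 to 217 FPKM in PAMH samples, with Sln and Bmp10 under 0.1 FPKM. Only 1 of these 5 atrial genes averaged at least 1 FPKM. Without a filter the median log2 fold change of the 5 was 0.01, with 3 positive and 2 negative. Skeletal muscle genes summed to at most 2.50 FPKM, adipocyte genes to at most 1.37 FPKM and Schwann and neural genes to at most 1.40 FPKM in any sample. The part of these cell types in the members' values was not tested, and in whole tissue fewer cells of a type and less RNA per cell cannot be told apart.

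Some of the members are also hosts of microRNAs, whose mature sequences show what else the transcripts carry. The RefSeq table (GRCm38.p6) places 15 mature microRNAs inside 5 of the members (H19, Igf2, Mest, Meg3 and Rian), with 15 distinct seeds. The mature forms from H19, Igf2 and Mest are given 5′ to 3′ with the seed, bases 2 to 8, in capitals.
mmu-miR-675-5p: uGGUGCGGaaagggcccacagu
mmu-miR-675-3p: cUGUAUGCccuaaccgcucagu
mmu-miR-483-5p: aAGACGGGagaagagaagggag
mmu-miR-483-3p: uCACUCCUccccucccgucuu
mmu-miR-335-5p: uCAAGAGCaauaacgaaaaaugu
mmu-miR-335-3p: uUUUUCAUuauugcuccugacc
No seed is shared between these 6. The miR-675 forms lie in an exon of H19 on the minus strand, at chr7:142577112-142577133 for the 5p arm and chr7:142577078-142577099 for the 3p arm. The miR-483 forms lie in an intron of Igf2 on the minus strand (chr7:142654968-142654989 and chr7:142654932-142654952), and the miR-335 forms in an intron of Mest on the plus strand (chr6:30741314-30741336 and chr6:30741354-30741375). The gene row of Mir675 was above 0 in all 10 samples, at 0.123 to 0.173 FPKM, Mir483 was listed at 0 throughout, and Mir335 was above 0 in 1 sample. These rows measure long RNA over the hairpins, and mature microRNAs were not measured.

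Igf2 is transcribed from several promoters, and 4 starts of it are in the RefSeq promoter table (250 bases before to 50 after each start). The one with the most CG pairs is shown because Igf2 is the member whose level was tied most closely to that of another member, as given below. It holds 24 CG pairs, in capitals, on the minus strand at chr7:142658755-142659054.
Igf2 promoter: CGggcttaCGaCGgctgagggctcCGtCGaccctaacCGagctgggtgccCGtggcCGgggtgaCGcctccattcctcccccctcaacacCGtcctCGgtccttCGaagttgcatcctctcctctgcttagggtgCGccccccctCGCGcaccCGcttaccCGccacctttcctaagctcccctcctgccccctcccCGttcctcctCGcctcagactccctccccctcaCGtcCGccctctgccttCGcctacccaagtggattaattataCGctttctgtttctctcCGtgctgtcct
The 4 Igf2 windows held 2, 14, 24 and 7 CG pairs on the strand shown, and 20% of the 32851 promoters of the table held at least 24, with a median of 7. Among the other members the promoter of Igf2r held 34 CG pairs (7.73% of promoters held at least as many). The richer of the windows of Grb10 held 45 (1.93%) and that of Plagl1 held 26 (16.9%). Every window of Peg3, Meg3, Rian and Mest held fewer than 24. H19, the member to which Igf2 was tied, and Cdkn1c had no window among these promoters. Methylation of these sequences was not measured.

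The 10 members spanned a wide range of levels in heart. Per length, Igf2r was the most abundant with a mean of 9.83 FPKM over the 10 samples, followed by Grb10 (6.75 FPKM), Cdkn1c (6.23 FPKM), Igf2 (4.59 FPKM) and H19 (4.46 FPKM). Mest (0.939 FPKM), Peg3 (0.329 FPKM), Plagl1 (0.290 FPKM), Meg3 (0.178 FPKM) and Rian (0.133 FPKM) lay below 1 FPKM. Igf2r was above Grb10 in 10 of 10 samples, H19 above Mest in 10 of 10 and Mest above Peg3 in 10 of 10. The order of the other neighbours was not the same in every sample, and Igf2 was above H19 in 5 of 10. Igf2r exceeded 91.7% of the genes with any signal and Rian 44.5% of them.

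**Figure D1:**
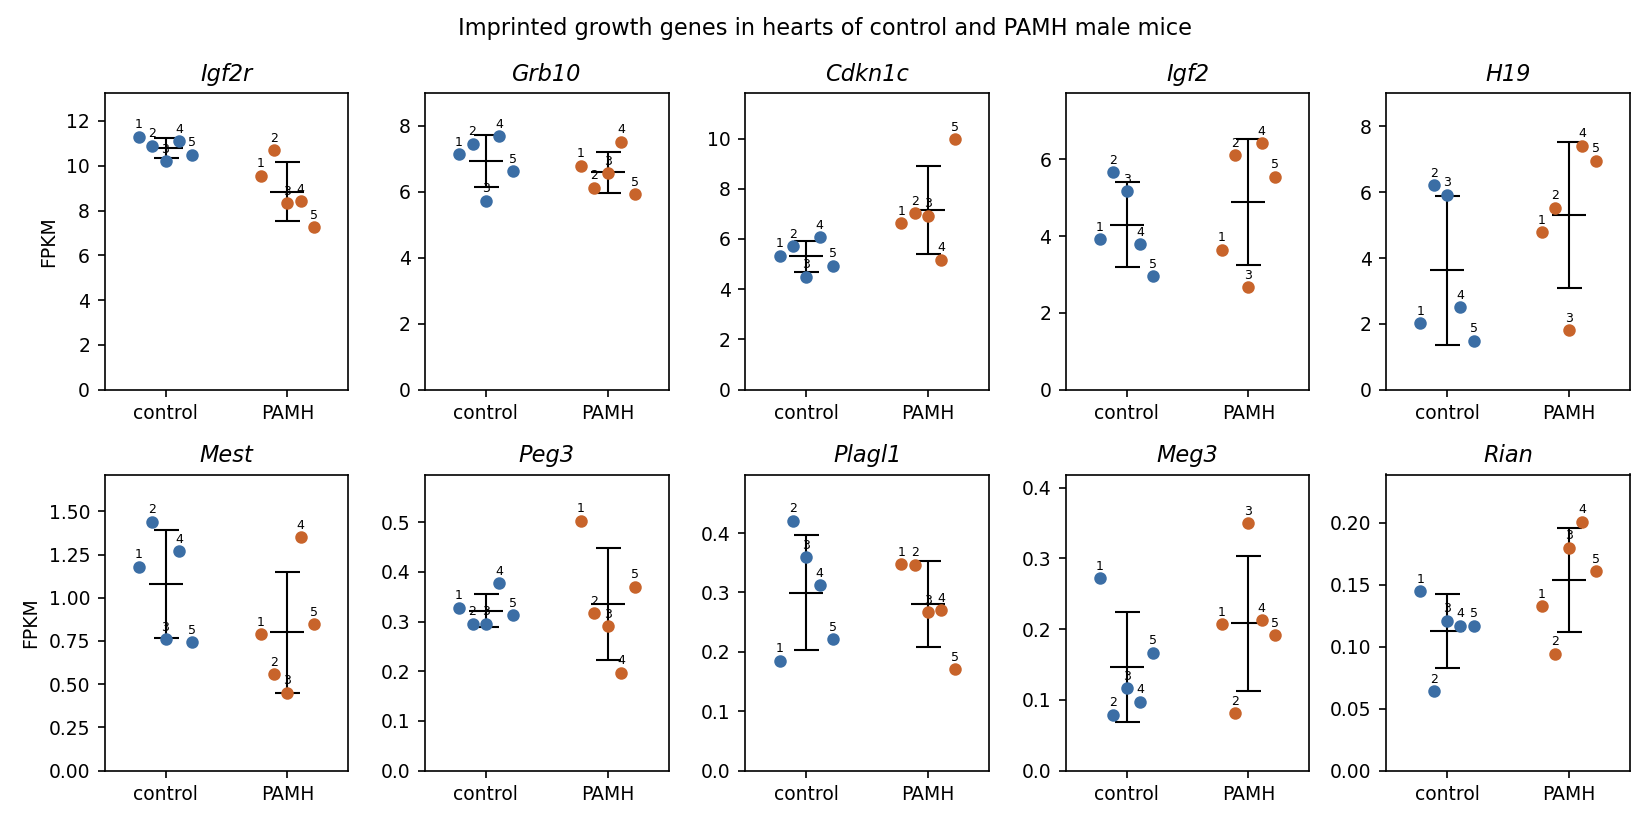
FPKM of each of the 10 members in each sample (one panel per gene, points with replicate numbers, linear axes from 0), with the mean ± SD of each group (n = 5). In every panel the groups overlap, and the wide scatter of H19 and Igf2 within each group stands against the tight control values of Igf2r.

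To ask whether prenatal exposure to the hormone altered these genes in the heart of the male offspring, PAMH was compared with control. The 5 members with a mean of at least 1 FPKM were read from a limma fit of log2(FPKM + 1) over 9439 genes, and none of the 5 passed an adjusted p of 0.05, where 6.19% of all tested genes did. Igf2r and Cdkn1c had an unadjusted p under 0.05 (2 of 5, against 24% of tested genes). No member had groups that did not overlap, a property of 8.44% of tested genes. The 5 members under 1 FPKM were read from a fit over all 26758 genes with a signal, in which none of the 10 members passed against 0.987% of the genes. The median log2 fold change of the 5 tested members was 0.12, with 3 positive and 2 negative, beside 0.07 over all tested genes.

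**Figure D2:**
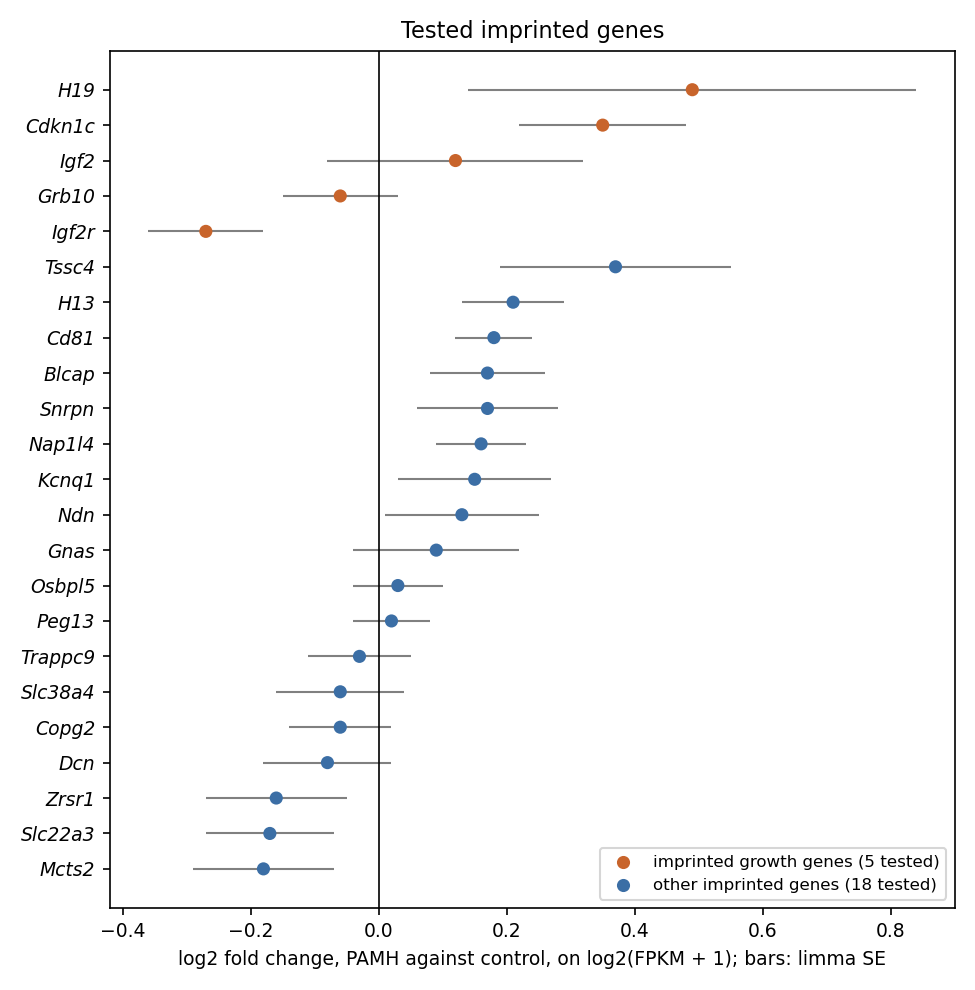
Log2 fold change (PAMH against control, log2(FPKM + 1) scale) of the 5 tested members and of the 18 other imprinted genes that were tested, with bars of ± 1 SE from limma. Igf2r lies lowest at −0.27 and H19 highest at 0.49, and none of these genes passed the adjusted threshold.

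Igf2 encodes insulin-like growth factor 2, a fetal growth factor (ENSMUSG00000048583, protein coding, chromosome 7, 142650766 to 142666816, minus strand). Control replicates 1 to 5 had 3.93, 5.67, 5.17, 3.79 and 2.96 FPKM and PAMH replicates 1 to 5 had 3.65, 6.12, 2.68, 6.42 and 5.55 FPKM. Control replicate 2 and PAMH replicates 2, 4 and 5 were high, PAMH replicate 3 was the lowest, and the groups overlapped over most of their range. The means were 4.30 ± 1.10 and 4.88 ± 1.64 FPKM (SD, n = 5 each), a log2 fold change of 0.12 (SE 0.20, limma adjusted p = 0.743). With 1 sample left out it ran from 0.02 (control replicate 5) to 0.28 (PAMH replicate 3), and without PAMH replicates 4 and 5 it was −0.07 (limma adjusted p = 0.882). Its antisense neighbour Igf2os, which overlaps it, was at most 0.0468 FPKM.

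H19 is a long noncoding RNA whose gene lies 72.6 kb from Igf2 and shares enhancers with it (ENSMUSG00000000031, chromosome 7, 142575529 to 142578143, minus strand). Its levels were 2.02, 6.22, 5.92, 2.50 and 1.49 FPKM in control replicates 1 to 5 and 4.78, 5.53, 1.81, 7.41 and 6.96 FPKM in PAMH replicates 1 to 5. Control replicates 2 and 3 lay with the PAMH samples, and PAMH replicate 3 lay with the low controls. The means of 3.63 ± 2.26 and 5.30 ± 2.22 FPKM (SD, n = 5 each) differed by a log2 fold change of 0.49 (SE 0.35, limma adjusted p = 0.419). It was 0.30 without control replicate 5, 0.75 without PAMH replicate 3 and 0.17 without PAMH replicates 4 and 5. The highest sample exceeded the lowest 4.19-fold among controls and 4.09-fold among PAMH samples. On the log2 scale the SD within groups was 0.67 for H19, larger than in 99.4% of tested genes, and 0.38 for Igf2, larger than in 96.0%. For Igf2r, Cdkn1c and Grb10 the SD exceeded that of 41.9%, 81.2% and 36.0% of genes. None of the 22 alternative settings in which H19 and Igf2 were tested brought either past the threshold, with adjusted p of 0.126 to 0.839 for H19 and 0.305 to 0.964 for Igf2.

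H19 and Igf2 varied together from sample to sample. With the group means removed, log2(FPKM + 1) of the pair correlated with Pearson r = 0.91 (within-group permutation p = 0.000764, adjusted p = 0.00764 over 10 pairs of members) and Spearman rho = 0.87 (permutation p = 0.000764, adjusted p = 0.00764) over 10 samples. Without control replicate 5 and PAMH replicate 3, the samples farthest from the median of H19, r was 0.77. As FPKM, no sample lay between 2.50 and 4.78 for H19, with 4 samples below this gap and 6 above. Neither set was tested by itself. The other 9 pairs among the 5 tested members had r between −0.27 and 0.22, each with an adjusted permutation p of 0.948. Cdkn1c and Grb10 had r = −0.17 over all samples and 0.86 without PAMH replicates 4 and 5, and Igf2r and Cdkn1c −0.27 and 0.49 without PAMH replicates 2 and 5.

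A measure of base composition was set beside the pair. The longest transcripts of H19 and Igf2 both have 55.8% GC, more than 79.9% and 80% of tested genes. The GC measure of a sample (the median log2 deviation of the fifth of tested genes with the most GC minus that of the fifth with the least) was −0.08, 0.14, −0.01, −0.15 and −0.08 in control replicates 1 to 5 and −0.04, 0.05, −0.16, 0.37 and −0.02 in PAMH replicates 1 to 5. It was highest where H19 was highest (PAMH replicate 4), but near 0 in PAMH replicate 5 and control replicate 3, where H19 was also high. With the group means removed its r over the 10 samples was 0.69 with H19 and 0.76 with Igf2, above that of 83% and 88.5% of tested genes, as a description. With this measure regressed out, r between H19 and Igf2 was 0.81. Of the other 9 pairs 4 moved far: Igf2 and Cdkn1c from −0.03 to 0.60, H19 and Cdkn1c from −0.02 to 0.51, H19 and Grb10 from −0.12 to −0.51, and Igf2 and Grb10 from −0.05 to −0.49. The part of base composition in these relations was not tested further. By rank of r with H19, Igf2 was number 16 among the tested genes, and H19 was number 9 for Igf2.

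**Figure D3:**
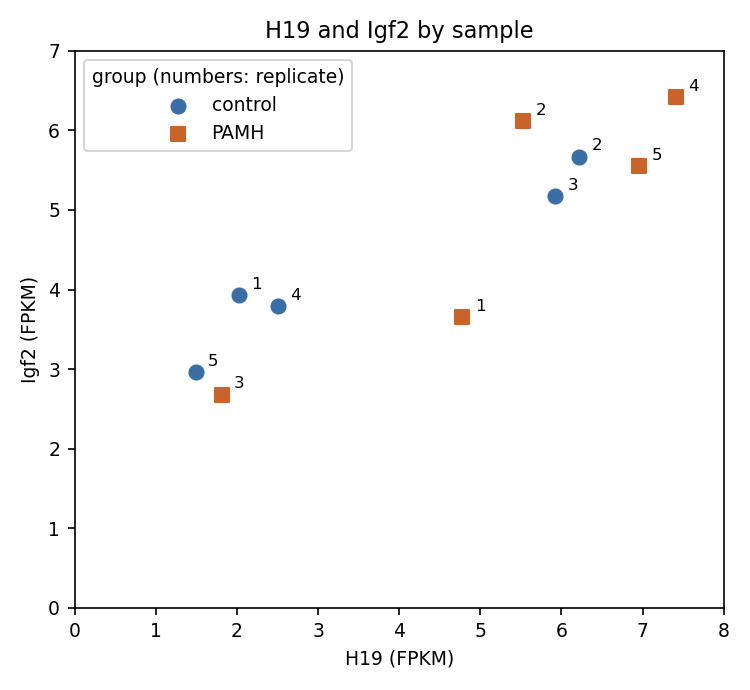
H19 (horizontal axis, FPKM) against Igf2 (vertical axis, FPKM), both linear from 0, with 1 point per sample and its replicate number (circles control, squares PAMH). Samples high in H19 are high in Igf2, with 4 samples at or under 2.50 FPKM of H19 and 6 at or above 4.78 FPKM.

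The ratio of H19 to Igf2 was lower in some controls than in the PAMH samples, without separating the groups. It was 0.514, 1.10, 1.14, 0.660 and 0.502 in control and 1.31, 0.905, 0.677, 1.16 and 1.25 in PAMH replicates 1 to 5. The geometric means of 0.735 and 1.03 differed by 0.49 on the log2 scale (exact 2-sided permutation p = 0.135, adjusted p = 0.25 over 3 ratios, smallest possible p 0.00794).

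Igf2r encodes the receptor that takes up IGF2 for degradation in the lysosome and carries lysosomal enzymes tagged with mannose 6-phosphate (ENSMUSG00000023830, chromosome 17, 12682406 to 12769664, minus strand). Control replicates 1 to 5 had 11.3, 10.9, 10.2, 11.1 and 10.5 FPKM and PAMH replicates 1 to 5 had 9.56, 10.7, 8.32, 8.41 and 7.25 FPKM. Of the PAMH samples 4 lay below every control, and PAMH replicate 2 lay among them. The means were 10.8 ± 0.446 and 8.85 ± 1.33 FPKM (SD, n = 5 each), a ratio of 0.819 and a log2 fold change of −0.27 (SE 0.09, limma adjusted p = 0.0945, unadjusted 0.0111). It passed in 3 of 23 alternative settings: with median ratio scaling (−0.36, limma adjusted p = 0.0287), with quantile normalization (−0.38, limma adjusted p = 0.0251) and without PAMH replicate 2 (−0.34, limma adjusted p = 0.043). Over all 23 the adjusted p ran from 0.0251 to 0.267 and the fold change kept its sign, with −0.17 without PAMH replicates 4 and 5. Airn, a paternally expressed antisense RNA that overlaps Igf2r and silences it on the paternal copy, had 0.655 ± 0.287 FPKM in control and 0.545 ± 0.232 FPKM in PAMH samples. The strand setting of the counting is not given in the sources used here, so reads of the pair may be mixed.

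The ligand and its clearing receptor were also set against each other. The ratio of Igf2 to Igf2r was 0.282 to 0.519 in control and 0.322 to 0.765 in PAMH samples, with geometric means of 0.388 and 0.528. The difference of 0.44 on the log2 scale did not pass (exact 2-sided permutation p = 0.167, adjusted p = 0.25), and without PAMH replicates 4 and 5 it was 0.09.

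Grb10 encodes an adaptor that binds the insulin and IGF1 receptors and damps their signal (chromosome 11, 11930508 to 12038683, minus strand). Its levels were 7.14, 7.45, 5.72, 7.68 and 6.61 FPKM in control and 6.78, 6.12, 6.55, 7.51 and 5.93 FPKM in PAMH replicates 1 to 5. The PAMH values lay wholly within the range of the controls. The means of 6.92 ± 0.781 and 6.58 ± 0.619 FPKM (SD, n = 5 each) gave a log2 fold change of −0.06 (SE 0.09, limma adjusted p = 0.705).

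Cdkn1c encodes p57, an inhibitor of cyclin-dependent kinases that holds cells out of division (ENSMUSG00000037664, chromosome 7, 143458339 to 143461050, minus strand, 791.5 kb from Igf2). Control replicates 1 to 5 had 5.33, 5.71, 4.50, 6.07 and 4.94 FPKM and PAMH replicates 1 to 5 had 6.63, 7.03, 6.93, 5.18 and 9.98 FPKM. Of the PAMH samples 4 lay above every control, PAMH replicate 5 farthest, and PAMH replicate 4 lay among the controls. The means were 5.31 ± 0.618 and 7.15 ± 1.75 FPKM (SD, n = 5 each), a ratio of 1.35 and a log2 fold change of 0.35 (SE 0.13, limma adjusted p = 0.127, unadjusted 0.0203). It passed in 2 of 23 alternative settings, with sample weights (0.42, limma adjusted p = 0.0266) and without PAMH replicate 4 (0.44, limma adjusted p = 0.0414), and the range over the 23 was 0.0266 to 0.317. The positive sign held in all 23. The overlapping antisense gene Gm44732 was at most 0.189 FPKM.

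**Figure D4:**
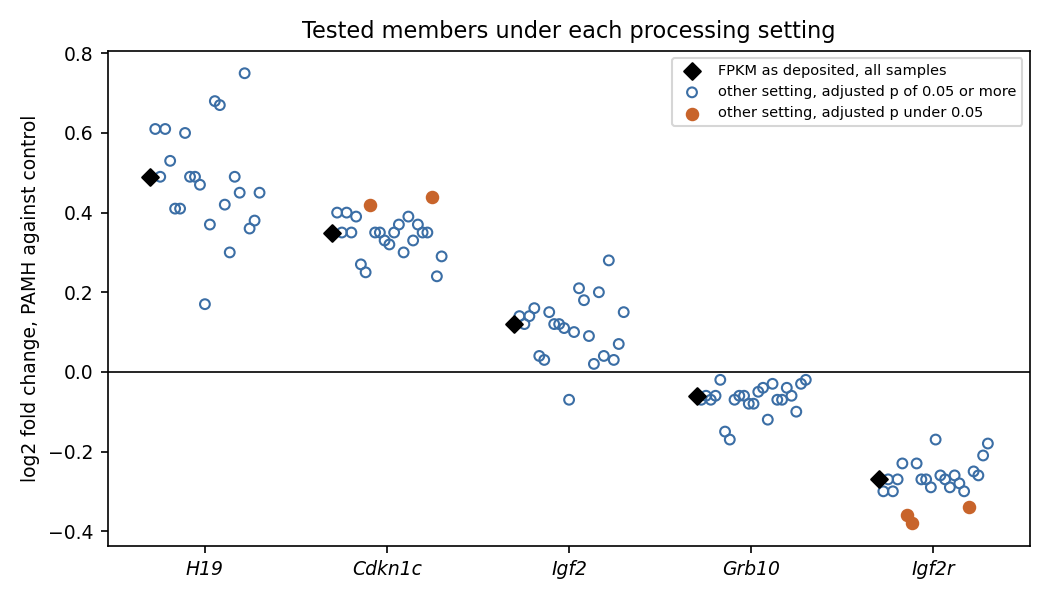
Log2 fold change (PAMH minus control) of the 5 tested members under the main fit and each of the alternative settings, 1 point per setting, with settings under an adjusted p of 0.05 as filled circles and the main value as a diamond. Igf2r stays below 0 and Cdkn1c above 0 throughout, with 3 and 2 filled circles, and Igf2 is below 0 in 1 setting. H19 also stays above 0 and Grb10 below 0 throughout, without a filled circle.

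Mest, Peg3 and Plagl1 are paternally expressed genes that were low in these hearts. Mest encodes a hydrolase-like protein of mesoderm and fat (chromosome 6, 30723547 to 30748465, plus strand). It had 1.18, 1.44, 0.759, 1.27 and 0.745 FPKM in control and 0.790, 0.557, 0.451, 1.35 and 0.849 FPKM in PAMH replicates 1 to 5. The lowest values were PAMH replicates 2 and 3, while PAMH replicate 4 exceeded all controls but replicate 2. The means were 1.08 ± 0.311 and 0.800 ± 0.350 FPKM (SD, n = 5 each), with a log2 fold change of −0.21 (SE 0.15, limma adjusted p = 0.634), and −0.32 without PAMH replicate 4. On log2(FPKM + 0.1) the fold change of Mest was −0.43 (limma adjusted p = 0.611). Its 3′ end overlaps Copg2, an imprinted gene on the other strand with a mean of 5.23 FPKM.

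Peg3 encodes a zinc finger protein (chromosome 7, 6703892 to 6730431, minus strand). It had 0.322 ± 0.0341 FPKM in control and 0.336 ± 0.113 FPKM in PAMH samples, from 0.296 to 0.378 and from 0.197 to 0.503 FPKM. The PAMH range enclosed the control range, and the log2 fold change was 0.01 (SE 0.06, limma adjusted p = 0.948). Plagl1, which encodes a zinc finger transcription factor known to regulate other imprinted genes (chromosome 10, 13060504 to 13131694, plus strand), had 0.300 ± 0.0972 and 0.281 ± 0.0730 FPKM (log2 fold change −0.02, SE 0.06, limma adjusted p = 0.9). Its control values of 0.185 to 0.421 FPKM enclosed the PAMH values of 0.171 to 0.348 FPKM but for the lowest.

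Meg3 and Rian are maternally expressed noncoding RNAs of the imprinted domain on chromosome 12, where their genes lie 32.2 kb apart (Meg3, 109541001 to 109571726, and Rian, 109603940 to 109661716, both on the plus strand). Meg3 had 0.272, 0.0790, 0.117, 0.0974 and 0.167 FPKM in control and 0.207, 0.0815, 0.350, 0.213 and 0.192 FPKM in PAMH replicates 1 to 5. PAMH replicate 3 was the highest and control replicate 2 the lowest. The means of Meg3 were 0.147 ± 0.0773 and 0.209 ± 0.0955 FPKM (SD, n = 5 each). Its log2 fold change was 0.08 (SE 0.06, limma adjusted p = 0.704), and 0.32 on log2(FPKM + 0.1) (limma adjusted p = 0.692). Rian had 0.113 ± 0.0295 and 0.154 ± 0.0415 FPKM (log2 fold change 0.05, SE 0.03, limma adjusted p = 0.546). On log2(FPKM + 0.1) the fold change of Rian was 0.25 (limma adjusted p = 0.656). The ratio of Rian to Meg3 was 0.822 in control and 0.787 in PAMH samples as geometric means (difference −0.06 on the log2 scale, exact 2-sided permutation p = 0.818, adjusted p = 0.818). The paternally expressed growth regulator of this domain, Dlk1, was at most 0.0204 FPKM in any sample.

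The genes whose levels followed each member most closely were named by the highest Pearson r with group means removed, over 10 samples and 9439 genes. For H19 they were Def8 (r = 0.98), Nkiras2 (0.95) and Hmox2 (0.93), and for Igf2 they were Rtl8c, Rxra and Tgfb1i1 (0.92 each). For Igf2r they were Wnk2 (0.97), Lrp1 (0.96), which encodes another endocytic receptor, and Farp1 (0.94). For Cdkn1c they were Fut8 (0.95), Sdad1 (0.93) and Ccar2 (0.93), and for Grb10 they were Irf7 (0.93), Tsc22d2 (0.91) and Srrd (0.91). None of these 15 genes passed between the groups, and each r is a description of 10 libraries.

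No other imprinted gene was called either. Of 54 further genes listed as imprinted in mouse 18 were tested and none passed limma's adjusted threshold, beside 6.19% of tested genes. An unadjusted p under 0.05 was found for 3 of the 18, beside 24% of tested genes. Of the 47 with any signal none passed in the fit without a filter, beside 0.987% of its genes. The remaining 7 were listed at 0 in every sample. In that fit 4 of the 47 had an unadjusted p under 0.05, beside 12.5% of its genes. The median log2 fold change was 0.09 over the 10 tested genes listed as maternally expressed and −0.02 over the 6 listed as paternally expressed. It was 0.13 over Gnas and Blcap, listed with products of both copies. Whether these genes are expressed from a single parental copy in the heart was not measured. The smallest adjusted p belonged to Cd81, a tetraspanin of the Cdkn1c domain, with 53.5 ± 1.59 and 60.7 ± 3.95 FPKM (SD, n = 5 each; log2 fold change 0.18, limma adjusted p = 0.12). H13, a signal peptide peptidase, had 2.27 ± 0.155 and 2.80 ± 0.433 FPKM (0.21, limma adjusted p = 0.15). Slc22a3, a cation transporter whose gene neighbours Igf2r, had 1.14 ± 0.163 and 0.905 ± 0.239 FPKM (−0.17, limma adjusted p = 0.297). Snrpn, a splicing factor, had 17.5 ± 1.01 and 20.0 ± 3.28 FPKM (0.17, limma adjusted p = 0.374), and the matrix proteoglycan Dcn had 51.5 ± 4.57 and 48.7 ± 6.16 FPKM (−0.08, limma adjusted p = 0.655). Ndn, a growth suppressor, gave 0.13 (limma adjusted p = 0.571), Mcts2 −0.18 (limma adjusted p = 0.347), Zrsr1 −0.16 (limma adjusted p = 0.378), Blcap 0.17 (limma adjusted p = 0.283) and Gnas, the stimulatory G protein subunit, 0.09 (limma adjusted p = 0.705). Calls appeared in 1 setting, without PAMH replicate 3, where Cd81 (0.21, limma adjusted p = 0.0385) and Snrpn (0.28, limma adjusted p = 0.0247) passed.

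The receptors and adaptors on which IGF2 acts were listed next. Of 9 IGF ligands, receptors and adaptors 5 were tested and none passed limma's adjusted threshold, beside 6.19% of tested genes. An unadjusted p under 0.05 was found for 3 of the 5, beside 24% of tested genes. The median log2 fold change was 0.08. Irs1, an adaptor that links the insulin and IGF1 receptors to PI3 kinase, had 2.19, 2.05, 1.82, 2.70 and 2.46 FPKM in control and 1.71, 1.72, 1.72, 1.12 and 0.514 FPKM in PAMH replicates 1 to 5. Its groups did not overlap, and the log2 fold change was −0.49 (SE 0.16, limma adjusted p = 0.0813). The insulin receptor gene Insr had 6.43 ± 0.405 and 5.12 ± 1.14 FPKM, also without overlap (−0.30, limma adjusted p = 0.17). Groups did not overlap in these 2 of the 5, beside 8.44% of tested genes. Without PAMH replicate 4 the fold change of Insr was −0.17, and without PAMH replicates 4 and 5 it was −0.13 for Insr and −0.25 for Irs1. Grb14, an adaptor of the Grb10 family, had 13.6 ± 1.34 and 16.9 ± 2.30 FPKM (0.29, limma adjusted p = 0.106), and it passed with sample weights (limma adjusted p = 0.019) and without PAMH replicate 3 (limma adjusted p = 0.0175). Irs2 gave 0.13 (limma adjusted p = 0.501). Under 1 FPKM and outside the naming rule, the IGF1 receptor gene Igf1r had 0.938 ± 0.141 and 0.714 ± 0.0865 FPKM (−0.18, limma adjusted p = 0.324 without a filter) and Igf1 had 0.548 ± 0.136 and 0.626 ± 0.143 FPKM (0.07, limma adjusted p = 0.738).

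Secreted proteins that bind IGFs in the tissue, with their proteases, gave 0 calls among 7 tested of 13 listed, beside 6.19% of tested genes. Their median was 0.01. An unadjusted p under 0.05 was found for 1 of the 7, beside 24% of tested genes. Igfbp6, which prefers IGF2 as its ligand, had 9.82 ± 1.46 and 13.8 ± 3.43 FPKM (log2 fold change 0.43, limma adjusted p = 0.121, and 0.27 without PAMH replicates 4 and 5), and Igfbp5 had 12.9 ± 3.50 and 15.3 ± 3.55 FPKM (0.24, limma adjusted p = 0.444). Igfbp7 had 65.8 ± 6.91 and 59.2 ± 4.77 FPKM (−0.15, limma adjusted p = 0.319) and passed with quantile normalization (−0.29, limma adjusted p = 0.0382). Igfbp3 gave −0.10 (limma adjusted p = 0.697), and Igfbp1 and Igfbp2 were listed at 0 in every sample.

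Igf2r also sorts enzymes to the lysosome, and the genes of that mannose 6-phosphate route were examined with it. Of 15 listed 14 were tested and none passed limma's adjusted threshold, beside 6.19% of tested genes. An unadjusted p under 0.05 was found for 2 of the 14, beside 24% of tested genes. The fold change was positive for 13 of the 14, with a median of 0.14 beside 0.07 over all genes, and for 10 of the 14 with median ratio scaling (0.05 beside 0.00). Gnptab, the enzyme that starts the tag, had 3.78 ± 0.342 and 4.71 ± 0.495 FPKM (log2 fold change 0.25, limma adjusted p = 0.0839). With PAMH replicate 2 left out it passed (0.31, limma adjusted p = 0.047). The protease Ctsd had 294 ± 34.8 and 371 ± 48.2 FPKM (0.33, limma adjusted p = 0.0839), and it passed with sample weights (limma adjusted p = 0.0227) and without PAMH replicate 3 (0.42, limma adjusted p = 0.0104). Hexa, a lysosomal hexosaminidase, gave −0.06 (limma adjusted p = 0.656). Macrophages are rich in such enzymes, and the summed macrophage markers were 97.9 to 113 FPKM in control and 112 to 139 FPKM in PAMH samples. Their part in these values was not tested.

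Cdkn1c was set among the other regulators of cell division. Of 20 listed kinases, cyclins, inhibitors and division markers 8 were tested, and 1 fell, beside 1.24% of all tested genes. This was Cdkn1a, the inhibitor p21 of the Cdkn1c family, with 13.4 ± 4.65 and 5.60 ± 1.61 FPKM (log2 fold change −1.11, SE 0.22, limma adjusted p = 0.0131). The limma adjusted p was 0.0616 without a filter on low genes, and 0.0535 without a filter at a pseudocount of 0.1. Cdkn1c itself had the opposite sign. The median of the 8 was −0.00 beside 0.07. Cdk4, the kinase of the cyclins D, named after its values were seen, had 5.78 ± 0.229 and 7.56 ± 1.20 FPKM (0.33, limma adjusted p = 0.0564), and it passed in 6 of 23 alternative settings.

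Of the genes that are read as marks of dividing cells, 5 were low in the control hearts and lower in the PAMH hearts. Without a filter the fold changes of the 20 listed genes were mixed, with 8 positive and 12 negative. In the fit without a filter 5 of the 20 genes of this list fell, beside 0.254% of all 26758 genes. Counted in either direction, 7 of the 20 had groups that did not overlap, beside 3.81%. Of these 7, 2 belong to the 8 genes that passed the filter and are not among the 5 that fell. The 5 genes are named after their values were seen. Ccna2, the cyclin of DNA synthesis, had 0.462, 0.573, 0.328, 0.393 and 0.301 FPKM in control and 0, 0.0265, 0, 0.0982 and 0.0673 FPKM in PAMH replicates 1 to 5 (log2 fold change −0.44, limma adjusted p = 0.0102). Every control exceeded every PAMH sample, and the call held in all 14 alternatives run for it. Ccnb1, the cyclin of mitosis, had 0.0711 to 0.134 FPKM in control, 0.0200 FPKM in PAMH replicate 1 and was listed at 0 in the other 4 PAMH samples (−0.13, limma adjusted p = 0.0173).

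Cdk1, the kinase of mitosis, had 0.114 to 0.284 FPKM in control and 0 to 0.0404 FPKM in PAMH samples (−0.22, limma adjusted p = 0.0278). Top2a, the topoisomerase of replicating chromosomes, had 0.136 to 0.326 and 0.0188 to 0.0538 FPKM (−0.27, limma adjusted p = 0.0226). Mki67, the Ki-67 antigen, had 0.119 to 0.266 and 0.00626 to 0.0843 FPKM (−0.19, limma adjusted p = 0.0358). None of these groups overlapped. On log2(FPKM + 0.1) the fold changes were −1.92 for Ccna2, −0.94 for Ccnb1, −1.31 for Cdk1, −1.37 for Top2a and −1.06 for Mki67. At these levels the size of a fold change depends on the pseudocount. The calls of Ccnb1, Cdk1, Top2a and Mki67 were less firm than that of Ccna2. Without PAMH replicates 4 and 5 the limma adjusted p was 0.0956 for Ccnb1, 0.12 for Cdk1, 0.0998 for Top2a and 0.0993 for Mki67. The fold changes were then −0.13, −0.22, −0.27 and −0.20. The call of Ccnb1 also ended without control replicate 4 (0.0515) or PAMH replicate 5 (0.0505). That of Top2a ended without control replicate 1, 4 or 5 or PAMH replicate 1, 2 or 5 (0.0517 to 0.0691). That of Cdk1 ended without any one of control replicates 1 to 4 or PAMH replicates 1, 2, 4 and 5 (0.0515 to 0.0848), and that of Mki67 without any one control or PAMH replicate 1, 2 or 5 (0.0516 to 0.0958). Levels near 0.1 FPKM rest on an unknown number of reads.

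**Figure D5:**
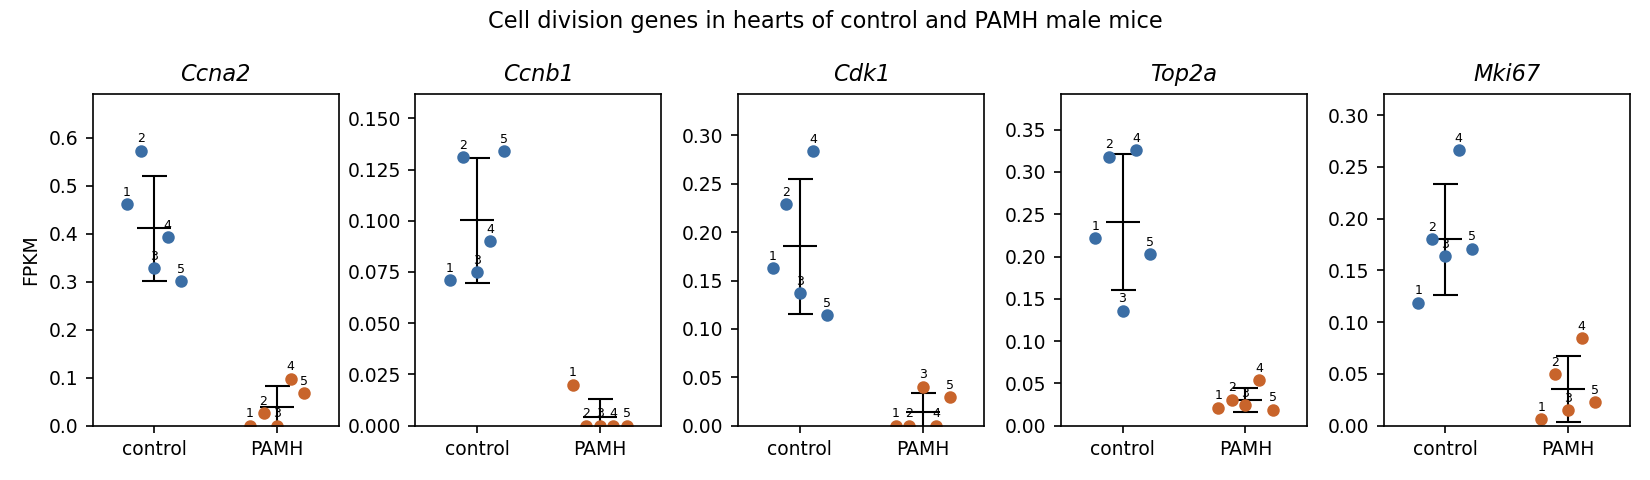
FPKM of Ccna2, Ccnb1, Cdk1, Top2a and Mki67 in each sample (one panel per gene, points with replicate numbers, linear axes from 0, mean ± SD with n = 5 per group, bars cut at 0). In each panel every control lies above every PAMH sample.

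The genes known to act upstream of the members gave no call. Of 18 factors that set or keep imprints 8 were tested and none passed limma's adjusted threshold, beside 6.19% of tested genes. Nor did any of the 8 have an unadjusted p under 0.05, beside 24% of tested genes. The median was 0.05, beside 0.07 over all tested genes. In the fit without a filter none of the 18 passed, beside 0.987% of its genes, and the median was −0.02 beside 0.00. There 3 of the 18 had an unadjusted p under 0.05, beside 12.5% of the genes of that fit. Ctcf, the insulator protein that separates Igf2 from its enhancers on the maternal copy, had 3.91 ± 0.222 and 4.34 ± 0.284 FPKM (log2 fold change 0.12, limma adjusted p = 0.284). The histone methyltransferase Ehmt2 gave 0.16 (limma adjusted p = 0.23), Setdb1 −0.04 (limma adjusted p = 0.759) and the DNA methyltransferase Dnmt3a −0.04 (limma adjusted p = 0.863). Of 11 fetal RNA-binding proteins and growth factors 3 were tested and none passed, beside 6.19% of tested genes, with a median of 0.16. An unadjusted p under 0.05 was found for 1 of the 3, beside 24% of tested genes. Hmga1, a chromatin protein of growing tissue, had 7.15 ± 2.76 and 11.7 ± 3.18 FPKM (0.68, limma adjusted p = 0.108, and 0.45 without PAMH replicates 4 and 5), and Ptbp1 gave 0.16 (limma adjusted p = 0.568). Lin28a and Hmga2, which are abundant in the embryo, were listed at 0 in every sample.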

How the data were processed

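RNA of 10 heart samples of male offspring, 5 control and 5 PAMH, was measured by RNA-seq of Trizol-extracted total RNA. The authors deposited FPKM for 55335 genes. Per the submitters' processing notes, reads were handled with HISAT2 2.2.1, HTSeq 0.13.5, Trimmomatic 0.38, FastQC 0.11.9, DESeq2 1.18.1 and R 3.4.1 on build mm10, with no step assigned to a tool. The FPKM tool, strand setting and multi-mapping rule: not given in the sources used here.

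Identifiers were matched to GENCODE vM21 (GRCm38; 55154 matched, 181 not). Those averaging at least 1 FPKM (9439) were tested with limma 3.58.1 (R 4.3.3) on log2(FPKM + 1) with an intensity trend, 2-sided, with Benjamini-Hochberg adjustment and a threshold of 0.05. Fold changes on this scale understate the change of low genes. Members under 1 FPKM were read from the same fit without the filter. Ratios were tested by exact permutation over samples, and correlations of members by the 14400 permutations within groups given to 1 member against the other. The fit was also run on simulated data with independent noise for each gene. That simulation held no effect shared by the genes of a sample, and its outcome is not given here.

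The members and gene lists were chosen with earlier results of these data known. Named genes were the members, list genes past the threshold, the 2 of smallest p in each direction in lists with none, and the 3 genes closest to each tested member. Sequences are RefSeq's (GRCm38.p6). Alternatives covered pseudocount (0.1), filter, scaling, weights, robust fitting, mitochondrial genes, a replicate block and samples left out. The fits without a filter with pseudocount 0.1, without a filter with samples left out or rescaled, and with each sample's length and GC trend taken out (loess, span 0.5) were chosen after seeing the data. Figures used matplotlib 3.10.9.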

Additional observations from a re-analysis of the deposited data

How the results depend on the processing

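Depth is unknown, so counting error at levels under 1 FPKM cannot be given. Against 584 genes called (467 higher, 117 lower), 264 were called without a filter, 291 without a filter at a pseudocount of 0.1, 1214 with sample weights, 360 without PAMH replicates 4 and 5, 883 with the length and GC trend removed, and 278 to 1126 with 1 sample left out (1126 without PAMH replicate 3, 278 to 345 without control replicate 1, 3, 4 or 5 or PAMH replicate 1 or 5). The split was 218 higher and 212 lower with median ratio scaling, 234 and 246 with quantile normalization and 559 and 85 at the same FPKM sum. Of the 5 tested members 1 was called with median ratio scaling, 1 with quantile normalization and 1 with sample weights, and 0 to 1 with 1 sample left out. The replicate numbers did not pair the samples (same-number correlations of −0.19 to 0.16, with 1 control and 2 PAMH samples correlating best with their own number). With the number as a replicate block 239 genes and 0 members were called. The ratio differences of 0.49 (H19 to Igf2), −0.06 (Rian to Meg3) and 0.44 (Igf2 to Igf2r) cannot move with complete blocks. Their adjusted permutation p within blocks was 0.312, 0.875 and 0.312. With 1 sample left out the ratio differences ran from 0.35 to 0.65, from −0.22 to 0.09 and from 0.31 to 0.62. Rian to Meg3 was positive without control replicate 3 (0.02) or 4 (0.07) or PAMH replicate 1 (0.01) or 3 (0.09). Other signs that turned were of log2 fold changes that passed nowhere: without PAMH replicates 4 and 5 Igf2 (−0.07), Plagl1 (0.03), Dcn (0.02), Gnas (−0.00) and Dnmt3a (0.11), without PAMH replicate 4 Dcn (0.00) and Dnmt3a (0.07) (with 1 sample left out Dcn ran from −0.14 and Dnmt3a from −0.09), without PAMH replicate 1 Peg3 (−0.03), without control replicate 2 or PAMH replicate 5 Plagl1 (0.01 each), with median ratio scaling Peg3 (−0.01) and Gnas (−0.01), with quantile normalization Gnas (−0.04), with sample weights Dnmt3a (0.04), and with the length and GC trend removed Setdb1 (0.01) and Dnmt3a (0.06). The cause of these changes was not tested.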
